A study of Mus musculus with 12 samples.

Results

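Midkine (Mdk), insulin-like growth factor binding protein 4 (Igfbp4), the type 1 insulin-like growth factor receptor (Igf1r) and platelet-derived growth factor A (Pdgfa) were followed in kidney cortex of 6 mice. Their clones were found by gene symbol; the genes themselves were picked with earlier results of these data known. Each of the 4 had exactly 1 clone on the array, printed as 2 adjacent spots, so 4 of 15600 clones and 4 of 6786 named genes were members, and all 4 passed the filter on dim clones. The diabetic mice (n = 3) had been given STZ, or streptozotocin, which kills pancreatic beta cells. The menopausal/diabetic mice (n = 3) had been given VCD in addition to STZ. VCD is vinylcyclohexene diepoxide, a compound that depletes small ovarian follicles and so models menopause without surgery. All animals were therefore diabetic by treatment, and no group without STZ and no group with VCD alone was analysed here. The labels used here do not give strain, sex or age. RNA from 6 weeks after STZ was amplified and labelled with Alexa Fluor 546 or 647. It was hybridised to 12 spotted cDNA arrays, each holding a pair of animals, of which 6 joined the groups and 3 stayed within each group. Every animal was hybridised 4 times, with 2 arrays per dye.

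Midkine is a secreted heparin-binding growth factor. It binds cell surface proteoglycans, LRP-family receptors and nucleolin, is made by proximal tubule cells, and has been studied in mouse models of diabetic kidney disease. Insulin-like growth factors act through Igf1r, a receptor tyrosine kinase that signals to PI3K, AKT and the RAS-MAPK cascade. Igfbp4 is a secreted protein that holds these ligands away from the receptor until a pappalysin protease cleaves it. PDGF-A is a ligand of the PDGF alpha receptor, through which it acts on mesenchymal cells of the kidney.

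Promoter windows of Igfbp4 and Igf1r are shown because these 2 members belong to 1 ligand system and had like levels across the animals. The windows are 300 bases around the annotated start in RefSeq's table for GRCm38.p6, which held 3 of the 4 members and no window for Mdk. Igfbp4 lies at chr11:99040994-99041293 and Igf1r at chr7:67952007-67952306, both on the plus strand. Capitals mark the GC box GGGCGG, also read on the other strand as CCGCCC, and the TATA box TATAAA, also searched on both strands.
Igfbp4: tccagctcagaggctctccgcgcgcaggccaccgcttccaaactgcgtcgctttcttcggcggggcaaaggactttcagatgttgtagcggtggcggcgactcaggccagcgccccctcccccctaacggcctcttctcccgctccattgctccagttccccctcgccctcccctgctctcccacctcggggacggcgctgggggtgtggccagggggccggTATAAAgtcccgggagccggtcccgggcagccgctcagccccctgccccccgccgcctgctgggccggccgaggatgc
Igf1r: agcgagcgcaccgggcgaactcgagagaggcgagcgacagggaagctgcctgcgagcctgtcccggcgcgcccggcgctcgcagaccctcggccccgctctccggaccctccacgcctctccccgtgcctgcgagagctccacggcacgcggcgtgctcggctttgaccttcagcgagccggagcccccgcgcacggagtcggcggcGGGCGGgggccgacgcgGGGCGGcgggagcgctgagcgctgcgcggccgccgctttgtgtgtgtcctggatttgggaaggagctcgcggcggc
The Igfbp4 window held 1 TATA box and 0 GC boxes, whereas the Igf1r window held 2 GC boxes and 0 TATA boxes. Of all 32851 windows of this length, 13.6% held the TATA letters and 35.7% the GC box letters on either strand. The full palindromic estrogen response element had 0 matches in the windows of Igfbp4, Igf1r and Pdgfa and was held by 0.07% of all windows. Base composition was 71.3% G or C for Igfbp4 and 76% for Igf1r. The files give no clone sequences or coordinates, so the arrays did not measure these windows.

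Array quality varied between the arrays. Background-subtracted signal had a median of 25.3 to 209 intensity units per array in the 546 channel and 14.6 to 107 in the 647 channel, and 30.5% to 57.4% of spots were called detected, with the same status in both channels for every spot. Among the markers of kidney cortex on the array, all 3 of proximal tubule (Lrp2, Gatm and Miox) passed the filter. So did both genes listed for loop and distal tubule (Calb1 and Wnk1), though which Wnk1 transcript the clone reads is not known. The titles place the animals on the arrays. Identifiers inside the scanner files matched the titles for 11 of 12 arrays, and the array titled diabetic 2 and diabetic 3 carried another identifier, the same for both dyes. Ratios of an array, less the dye term, correlated with those predicted from the other 11 arrays at -0.25 to 0.49 (median 0.01) across the genes and clones tested, which are not independent. The deposited table of log2 ratios followed the same 12 arrays in another order, so its columns and its own array names do not match. Group differences below are given at the titles, and those of the 4 members also in the order of the deposited columns.

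Levels are in log2 units around the mean of the 6 animals, estimated from the 12 ratios with a dye term, and each difference is menopausal/diabetic minus diabetic. Mdk was measured by a bright clone, in percentile 81.5 of all clones by mean intensity, and detected on 12 of 12 arrays. Its levels were -0.17, 0.02 and -0.51 in diabetic animals 1 to 3 and 0.23, 0.15 and 0.28 in menopausal/diabetic animals 1 to 3. The groups did not overlap, with all 3 menopausal/diabetic animals above all 3 diabetic ones by a gap of 0.12, and diabetic animal 3 was the lowest. The mean difference was 0.44 ± 0.13 (SE, 3 animals per group; 95% interval 0.13 to 0.75), a fold of 1.36. It did not pass limma's test on the animal levels, where its p was 0.0129 and its Benjamini-Hochberg adjusted p 0.535.

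Igfbp4 was the brightest of the 4 clones, in percentile 97.5, and was detected on all 12 arrays. Diabetic animals 1 to 3 had levels of -0.45, 0.13 and -0.60, and menopausal/diabetic animals 1 to 3 had 0.30, 0.16 and 0.46. The groups did not overlap, but diabetic animal 2 lay only 0.03 below the lowest menopausal/diabetic animal. The mean difference was 0.61 ± 0.19 (SE, 3 animals per group; 95% interval 0.16 to 1.07), a fold of 1.53, and did not pass limma's test either. Its p was 0.0152 and its adjusted p 0.535 in limma.

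Igf1r, also detected on 12 of 12 arrays and in brightness percentile 84.3, had levels of -0.09, 0.12 and -0.77 in the diabetic animals and 0.16, 0.22 and 0.36 in the menopausal/diabetic ones. The gap between the groups was 0.04, and diabetic animal 3 stood apart from the other 5 animals on the low side. Its difference was 0.49 ± 0.22 (SE, 3 animals per group; 95% interval -0.03 to 1.01), a fold of 1.41. In limma the p of Igf1r was 0.0597 and its adjusted p 0.607.

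Pdgfa was the dimmest member, in percentile 57.1, and was called detected on 5 of 12 arrays. Its levels were 0.04, -0.08 and 0.23 in the diabetic animals and -0.17, 0.05 and -0.08 in the menopausal/diabetic ones, so the groups overlapped and diabetic animal 3 was the highest. The difference was -0.13 ± 0.10 (SE, 3 animals per group; 95% interval -0.36 to 0.10), a fold of 0.913. The p of Pdgfa in limma was 0.213 and its adjusted p 0.748.

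**Figure D1:**
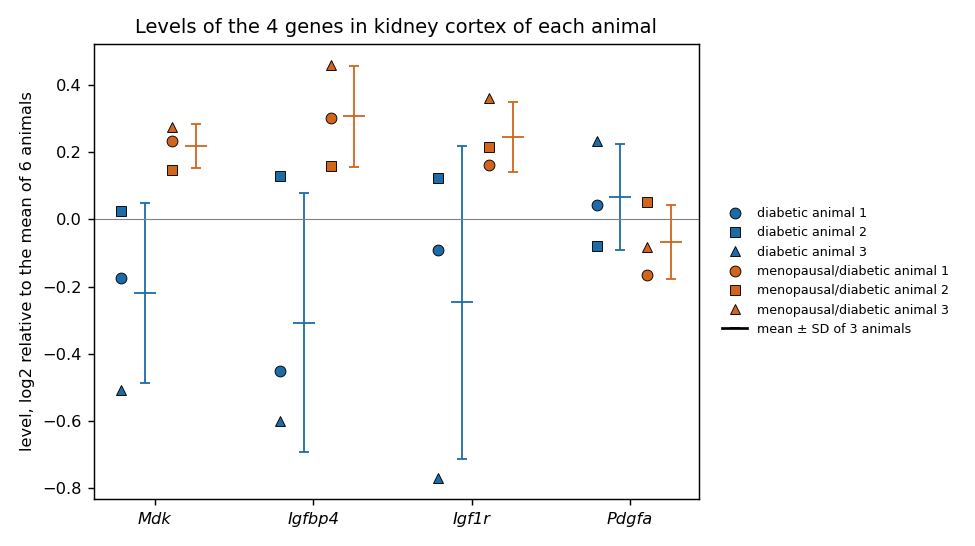
Level of each gene in each animal, in log2 relative to the mean of the 6 animals (vertical axis), with 1 point per animal and the mean ± SD of 3 animals beside it. The 3 menopausal/diabetic animals lie above the 3 diabetic ones for Mdk, Igfbp4 and Igf1r, by gaps of 0.12, 0.03 and 0.04, and among them for Pdgfa.

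Read against the whole array, these differences were not called. Among 9958 rows tested with limma, which are genes and clones without a name, 0 (0%) had an adjusted p under 0.05. At an unadjusted p under 0.05 there were 833 (8.37%), of which 512 (5.14%) were higher in the menopausal/diabetic animals, Mdk and Igfbp4 among them, and 321 (3.22%) were lower. The groups did not overlap for 1416 (14.2%), with the menopausal/diabetic animals higher for 760 (7.63%), among them Mdk, Igfbp4 and Igf1r, and lower for 656 (6.59%). An exact permutation test of 3 against 3 animals, two-sided, gave p = 0.1 for Mdk, Igfbp4 and Igf1r, the smallest this design allows, and p = 0.4 for Pdgfa. Replicates are separate animals by the titles. In bulk cortex, fewer cells of a type and less RNA per cell cannot be told apart.

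The result depended on which array each set of ratios belongs to. In the order of the deposited columns, the differences were -0.07 for Mdk, 0.08 for Igfbp4, -0.12 for Igf1r and -0.05 for Pdgfa, and the adjusted p was 0.928 or higher for each (limma). The spread of the arrays around the fitted animal levels was smaller at the titles for all 4 genes. It was 0.24 against 0.36 for Mdk, 0.32 against 0.50 for Igfbp4, 0.35 against 0.55 for Igf1r and 0.11 against 0.20 for Pdgfa (residual SD, log2, at the titles and then in the deposited order). Over all genes and clones tested the median residual SD was 0.180 at the titles and 0.189 in the deposited order.

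The 6 arrays that pair the groups show the ratios behind the differences, and the point estimates rest on them alone. Mdk was the only member with a ratio of menopausal/diabetic over diabetic above 0 on 6 of 6 of these arrays once the dye term was removed. Against diabetic animal 1 its log2 ratios were 0.31 and 0.20, against animal 2 they were 0.12 and 0.35, and against animal 3 they were 0.58 and 1.06. Igfbp4 was above 0 on 5 of 6, with log2 ratios of 1.31 and 0.53 against diabetic animal 1, 0.58 and -0.04 against animal 2, and 0.59 and 0.73 against animal 3. Igf1r was also above 0 on 5 of 6. Both of its highest log2 ratios, 0.99 and 1.46, were against diabetic animal 3, and the other 4 ran from -0.26 to 0.46. Pdgfa was below 0 on 6 of 6 arrays. One of its log2 ratios, -0.54 against diabetic animal 3, stood apart from the other 5, which lay between -0.12 and -0.01. Of those 5, the clone was called detected only on the array of diabetic animal 2 and menopausal/diabetic animal 3. On the array of menopausal/diabetic animal 3 and diabetic animal 1 its signal lay below background in both channels (-57.8 and -33.2).

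**Figure D2:**
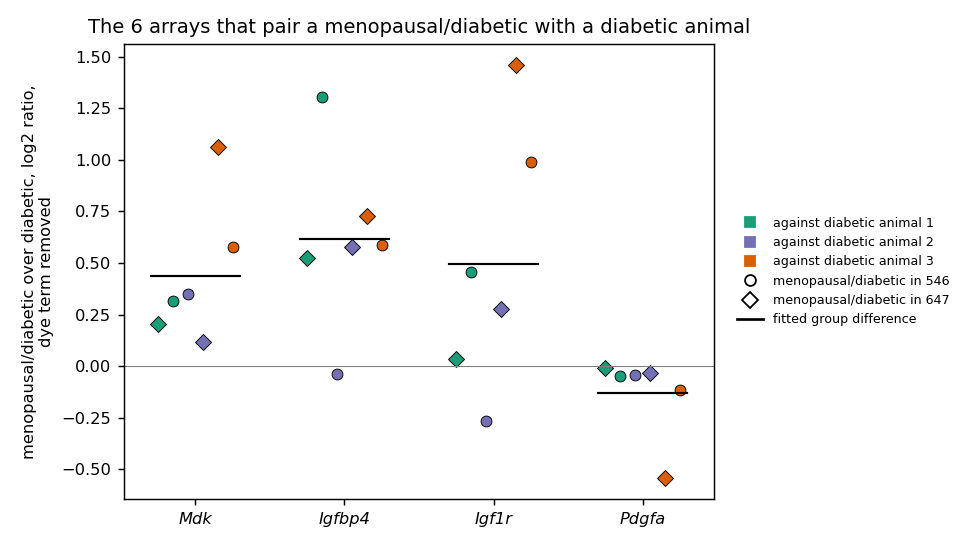
Log2 ratio of menopausal/diabetic over diabetic (vertical axis, dye term removed) on each of the 6 between-group arrays, coloured by the diabetic animal on the array and shaped by the dye of the menopausal/diabetic animal; the black line is the fitted group difference. Ratios run from 0.12 to 1.06 for Mdk, -0.04 to 1.31 for Igfbp4, -0.26 to 1.46 for Igf1r and -0.54 to -0.01 for Pdgfa.

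The dyes favoured the members unequally. The dye term, the log2 excess of the 546 over the 647 channel, was -0.38 for Mdk, 0.39 for Igfbp4, 0.38 for Igf1r and -0.02 for Pdgfa. For Mdk it was -0.29 from the 3 arrays of diabetic pairs, -0.41 from the 3 of menopausal/diabetic pairs and -0.40 from the between-group arrays. For Igf1r the same 3 sources gave 0.57, 0.39 and 0.28. Each group was in each dye on 3 of the between-group arrays, so the term cancels from the group difference. The mean raw ratio of 546 over 647 for Mdk was 0.04 with the menopausal/diabetic animal in 546 and -0.84 with the diabetic animal in 546. For Igfbp4 these means were 1.01 and -0.22. The 2 spots of a clone differed by a median of 0.04 to 0.05 log2 units over the arrays and by at most 0.25, in Igfbp4.

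Ranges within the diabetic group exceeded the differences between the groups. Mdk spanned -0.51 to 0.02, Igfbp4 -0.60 to 0.13 and Igf1r -0.77 to 0.12 among the 3 diabetic animals, and the ranges were 0.53, 0.73, 0.89 and, for Pdgfa, 0.31. The SD over diabetic animals was 0.27 for Mdk, 0.39 for Igfbp4, 0.47 for Igf1r and 0.16 for Pdgfa. Over the menopausal/diabetic animals it was 0.07, 0.15, 0.10 and 0.11 in the same order. Moderated F tests on the arrays, whose error is that between arrays, gave unadjusted p-values among the diabetic animals of 0.013 for Mdk, 0.0066 for Igfbp4, 0.00344 for Igf1r and 0.0121 for Pdgfa. None of the 4 passed after adjustment (limma, adjusted p 0.207, 0.158, 0.112 and 0.203), where 144 of the 9958 (1.45%) did and 13.1% had an unadjusted p under 0.05. Among the menopausal/diabetic animals the adjusted p was 0.943 or higher for the 4 genes, and 0 of the 9958 (0%) passed (limma), with 511 (5.13%) at an unadjusted p under 0.05. The difference in spread between the groups was not tested. The limma test between the groups, its SE and its intervals assume 1 common spread for both.

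Ordered by level, few neighbouring animals differed beyond the array error. For Mdk the step from diabetic 3 to diabetic 1 was 0.33 (95% interval 0.02 to 0.65), and no other step had an interval clear of 0. Igfbp4 had 1 such step, 0.58 from diabetic 1 to diabetic 2 (0.18 to 0.99). In Igf1r it was the 0.68 from diabetic 3 to diabetic 1 (0.24 to 1.12). Pdgfa had none. The step that separates the groups, from diabetic 2 up to the lowest menopausal/diabetic animal, was not among them for Mdk, Igfbp4 or Igf1r. Of the 9 pairs of 1 menopausal/diabetic and 1 diabetic animal, 6 had intervals clear of 0 for Mdk, 6 for Igfbp4, 4 for Igf1r and 3 for Pdgfa. Of the 6 pairs within a group, it was 2 for Mdk, 2 for Igfbp4, 2 for Igf1r and 3 for Pdgfa. These intervals cover array error only and share animals, and the share over all rows was not computed.

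Diabetic animal 3 carried much of the difference in Mdk and Igf1r. Without it the difference was 0.23 for Mdk and 0.08 for Igf1r, while that of Igfbp4 was 0.56 and that of Pdgfa was -0.03. Without diabetic animal 2, the closest of its group to the menopausal/diabetic animals, the differences were 0.56, 0.82, 0.75 and -0.21 for Mdk, Igfbp4, Igf1r and Pdgfa. In that fit Igfbp4 passed the threshold (limma, adjusted p = 0.0376), as did 46 of the 9958, against 0 with all animals. Leaving out menopausal/diabetic animal 3 gave 0.36 for Igfbp4, and leaving out menopausal/diabetic animal 1 gave 0.30 for Mdk and -0.06 for Pdgfa. With 2 animals left in a group, the spread of the lone pair is assumed to be like that of the other group.

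**Figure D3:**
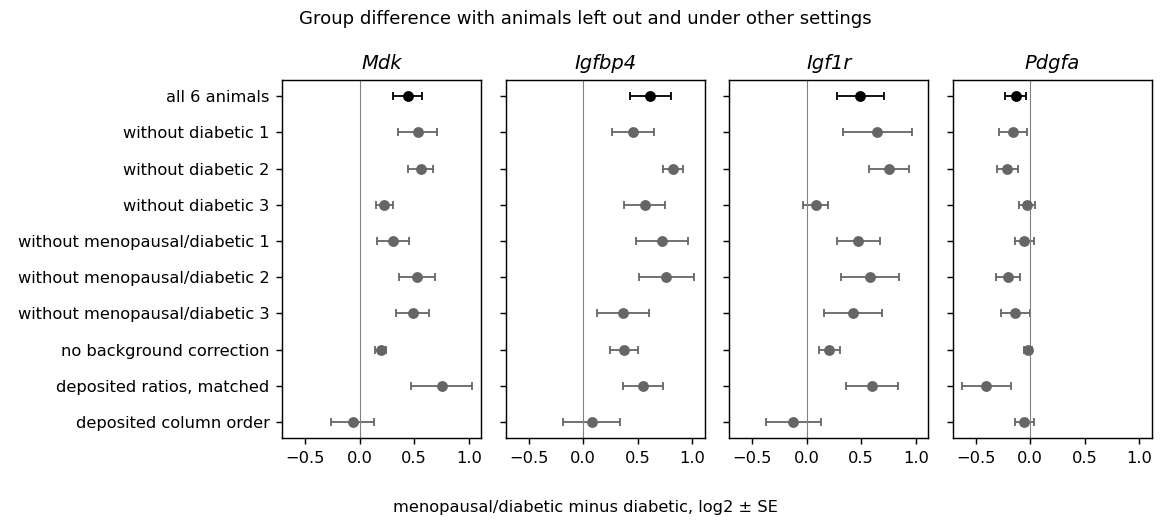
Menopausal/diabetic minus diabetic difference of each gene in log2 ± SE (horizontal axis), with all 6 animals, with each animal left out, and under 3 other settings (vertical axis). Igf1r runs from 0.08 without diabetic animal 3 to 0.75 without diabetic animal 2, and in the order of the deposited columns Mdk and Igf1r lie below 0.

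Tubule genes stood apart in diabetic animal 3 as well. All 3 measured proximal tubule markers had their lowest level in it, and all 3 differed among the diabetic animals (limma's moderated F, adjusted p under 0.05). The endocytic receptor Lrp2, or megalin, was at -1.15 there and between 0.13 and 0.33 in the other 5 animals. Gatm, an enzyme of creatine synthesis, was at -1.66, and Miox, the inositol oxygenase of proximal tubule, at -0.89. Calb1, the calcium-binding calbindin of distal tubule, was at -1.36 and the kinase gene Wnk1 at -0.62. Markers of injured tubule did not share 1 pattern there. Of the 5 tested, the secreted protein Lcn2 was at 1.29 in diabetic animal 3 and between -0.51 and -0.02 in the others, and Krt18 was also highest there, at 0.18. The chaperone gene Clu was lowest there, at -0.41, and Havcr1, the injury molecule KIM-1, was at 0.17 against 0.75 and 0.31 in diabetic animals 1 and 2. Krt8 had 0.13, 0.12 and 0.13 in diabetic animals 1 to 3. Between the groups, Havcr1 (-0.82 ± 0.18), Clu (0.54 ± 0.08) and Krt8 (-0.25 ± 0.04) did not overlap, and their adjusted p in limma was 0.446, 0.283 and 0.328. Lcn2 and Krt18 overlapped. Of the markers of other cell types named here, Calb1, Wnk1, Dcn and Cdkn1c did not overlap either. Over all rows tested, the groups did not overlap for 14.2%. Several genes of other cell types also had their lowest level in diabetic animal 3. Endothelial Emcn and Ehd3 were lowest there at -0.27 and -0.34, and podocyte Podxl at -0.33. Podocyte Cdkn1c, at -0.01, was not. Of 6 tested genes of mesangium, pericyte, smooth muscle and fibroblast, all but Lum (0.05) were lowest there. They ran from -0.53 for Col3a1, a fibrillar collagen, and -0.23 for Dcn to -0.04 for Pdgfrb. Collecting duct Slc4a1 was lowest there at -0.08. Leukocyte Lyz2, C1qa and C1qb, at -0.20, -0.10 and -0.05, were not. Of the 9958 tested, 22.4% had their lowest level in diabetic animal 3 and 26.8% their highest, so Mdk, Igfbp4 and Igf1r belonged to the former and Pdgfa to the latter. The part of these markers in the differences of Mdk and Igf1r was not tested. Without the array titled diabetic 2 and diabetic 3, whose identifier did not match, the moderated F test among diabetic animals called 31 genes and clones. With it, the test called 144. The proximal tubule markers were not followed in that fit, and all marker levels here are at the titles.

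**Figure D4:**
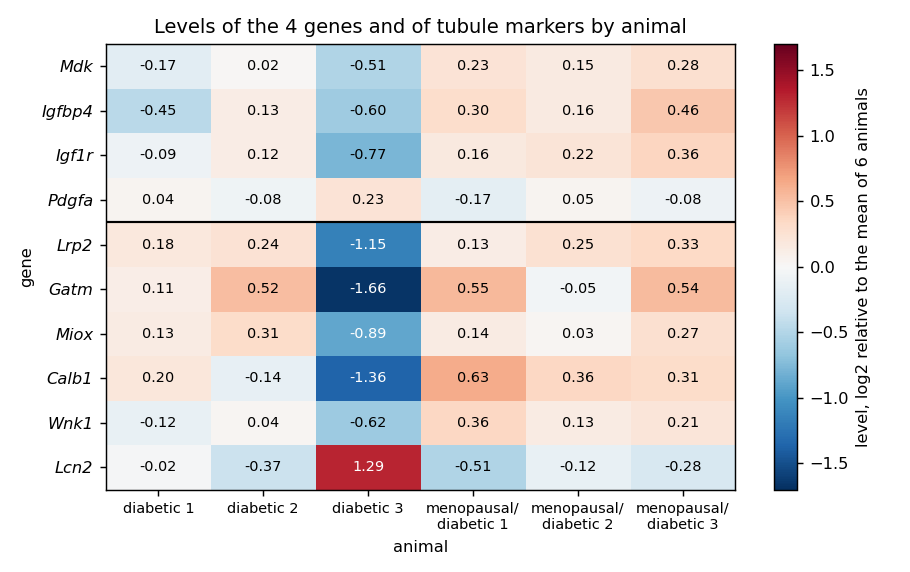
Level of the 4 genes (upper rows) and of genes listed as markers of proximal tubule (Lrp2, Gatm, Miox), loop and distal tubule (Calb1, Wnk1) and injured tubule (Lcn2) in each animal (columns), in log2 relative to the mean of the 6 animals. Diabetic animal 3 has the lowest value in every row other than Pdgfa and Lcn2, where it has the highest. Lcn2 was picked from 5 tested markers of injured tubule, which did not share a single pattern. Of the others, not shown, Krt18 was highest in diabetic animal 3 and Clu lowest.

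The genes whose 12 array ratios were most like those of a member included none of the growth factor lists. Those lists held only 5 to 16 tested genes each, among 5871 named genes tested, so their absence says little about the members. For Mdk they were Slc6a8, the creatine transporter (Pearson r = 0.963), Taf1d (0.938) and Vps35l (0.926). For Igfbp4 they were Maco1 (0.917), Dynll2, a dynein light chain (0.915), and Mcur1 (0.903). Igf1r was most like Tbc1d2b (0.953), Arhgap45 (0.943) and Zfp871 (0.940), the last printed in the same block as Igf1r. Pdgfa was most like Lgals4, a galectin (0.951), Lcn2 (0.916) and Snrpa1 (0.915). These correlations run over 12 arrays that share animals and include the dye effect, and they are the highest among the named genes tested, so they are descriptions.

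Partners of the members were measured from lists chosen with earlier results of these data known. Over all rows tested the median difference was -0.0017, with 49% were above 0 and 51% below. No gene of any list had an adjusted p under 0.05 (limma). Of the 23 list genes named below other than the members, the sign of the difference turned without diabetic animal 3 for 9, with some 1 animal left out for 13, and in the order of the deposited columns for 14. Those 14 include Foxo3 (-0.13), Foxo1 (-0.13), Igf2 (0.05) and Lrp2 (-0.04), while Ncl had 0.10.

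Among midkine and its receptors, 9 of 20 listed genes were tested, 6 with a difference above 0 and 3 below, with a median of 0.09. Ncl, nucleolin, a binding partner of midkine at the cell surface, had levels of -0.19, 0.02 and -0.38 in the diabetic animals and 0.21, 0.27 and 0.08 in the menopausal/diabetic ones. Its groups did not overlap, and its difference was 0.37 ± 0.11 (SE, as for all list genes). In limma its p was 0.0112 and its adjusted p 0.535, and its difference was 0.18 without menopausal/diabetic animal 1. Lrp2, a receptor named for midkine uptake, had 0.48 ± 0.36, which was 0.02 without diabetic animal 3. Sdc2, the proteoglycan syndecan 2, had 0.11 ± 0.12, and -0.04 without diabetic animal 3. The midkine homologue pleiotrophin (Ptn) was on the array but was left out as dim.

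Of the insulin-like growth factor system, 9 of 25 listed genes were tested, 4 above 0 and 5 below, with a median of -0.02. The ligand Igf2 had levels of -0.11, 0.29 and 0.41 in the diabetic animals and -0.06, -0.24 and -0.29 in the menopausal/diabetic ones. The groups overlapped, through diabetic animal 1, and the difference was -0.39 ± 0.14. In limma Igf2 had a p of 0.0269 and an adjusted p of 0.557. Igf1, the ligand that growth hormone induces, differed by -0.02 ± 0.05 and was detected on 2 of 12 arrays. The binding proteins Igfbp3 and Igfbp5 differed by -0.11 ± 0.17 and 0.13 ± 0.17, with Igfbp3 at 0.05 without diabetic animal 2 and Igfbp5 at -0.03 without diabetic animal 3. Of the 9, Igfbp4 and Igf1r had all menopausal/diabetic levels above the diabetic ones, as did 7.63% of all rows tested, and Insr was not measured by a named clone.

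In the PDGF family, 5 of 10 listed genes were tested, 4 above 0 and 1 below, with a median of 0.08. Pdgfa was the 1 below. Sparc, a matrix protein that binds PDGF, differed by 0.11 ± 0.19, the ligand Pdgfc by 0.10 ± 0.10 and Plat, the tissue plasminogen activator that cleaves PDGF-C, by 0.08 ± 0.06. Without diabetic animal 3 Sparc was at -0.10, Pdgfc at -0.0038 and the list median at -0.0039. The beta receptor Pdgfrb differed by 0.01 ± 0.05 and was detected on 1 of 12 arrays. Pdgfra, which encodes the receptor of PDGF-A, was left out as dim.

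Downstream, 16 of 42 genes of the adaptors and the PI3K, AKT, mTOR and FOXO branch were tested, 14 above 0 and 2 below, with a median of 0.06. Foxo3 and Foxo1 encode transcription factors that AKT phosphorylates and moves out of the nucleus. Foxo3 had levels of -0.24, -0.14 and -0.34 in the diabetic animals and 0.04, 0.48 and 0.21 in the menopausal/diabetic ones. The difference was 0.48 ± 0.12, and limma's p was 0.0045 and its adjusted p 0.516. Foxo1 had -0.28, -0.06 and -0.13 against 0.08, 0.32 and 0.07, and its difference was 0.31 ± 0.09, with a limma p of 0.0124 and an adjusted p of 0.535. The groups overlapped for neither gene, and menopausal/diabetic animal 2 had the highest level of each gene. Tsc1, which holds back mTOR, differed by -0.22 ± 0.19 and Pik3r1, a regulatory subunit of PI3K, by 0.15 ± 0.16. Tsc1 was at 0.18 without diabetic animal 2, 0.21 without menopausal/diabetic animal 1 and -0.51 without diabetic animal 3, and Pik3r1 at -0.09 without the last. The substrate adaptor Irs1 was left out as dim.

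In the RAS-MAPK list, 13 of 30 genes were tested, 9 above 0 and 4 below, with a median of 0.07 that was -0.01 without diabetic animal 3. The largest differences were -0.19 ± 0.10 for the adaptor Shc1, 0.17 ± 0.08 for the adaptor Grb2, 0.15 ± 0.08 for the GTPase Nras and 0.12 ± 0.06 for Spred1, an inhibitor of the cascade. Without diabetic animal 3 these were -0.06, -0.01, -0.04 and 0.01. Of other kidney growth factors and receptors, 6 of 38 were tested, 4 above 0 and 2 below, with a median of 0.02. Erbb3, a receptor of neuregulins, differed by 0.23 ± 0.13, the growth hormone receptor Ghr by -0.19 ± 0.13, Tgfb2 by 0.17 ± 0.08 and Hdgf by -0.09 ± 0.05. Erbb3 was at -0.04 without diabetic animal 3, Ghr at 0.03 without diabetic animal 1, and Hdgf at -0.03 without diabetic animal 2. Tgfb2, detected on 1 of 12 arrays, was at -0.0063 without background correction.

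**Figure D5:**
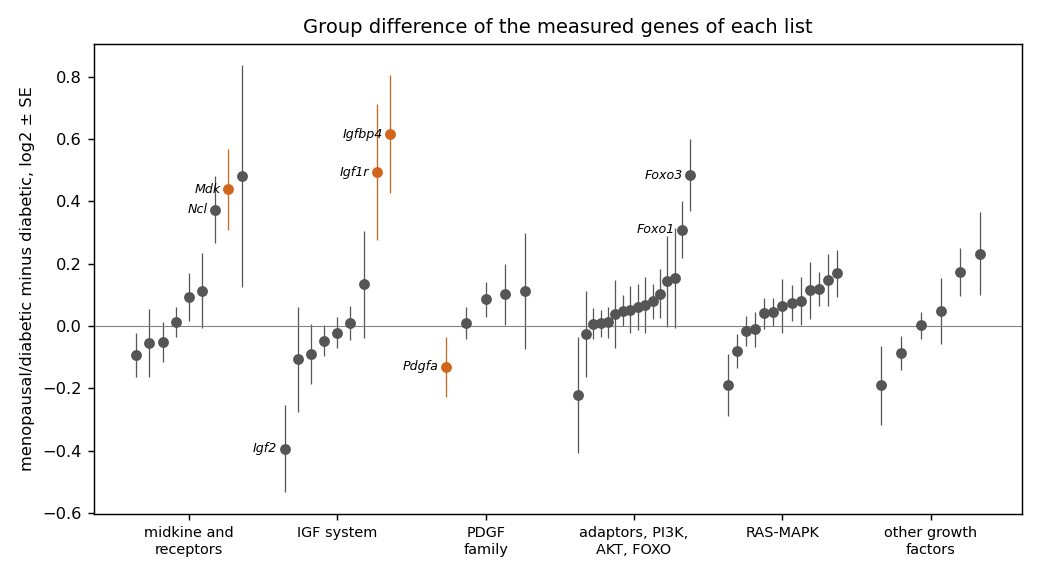
Menopausal/diabetic minus diabetic difference in log2 ± SE (vertical axis) of every tested gene of each list (horizontal axis), with the 4 genes of interest in orange and names for these and for genes at an unadjusted p under 0.05. Foxo3 (0.48), Foxo1 (0.31) and Ncl (0.37) lie above 0 and Igf2 (-0.39) below.

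Position on the slide was checked, since 3 print blocks in the upper left corner held 31.3% of rows at an unadjusted p under 0.05 against 7.03% in the other 45 blocks. None of the 4 members, and none of the genes named from the growth factor and signalling lists, was printed in those 3 blocks. Taf1d, named for its likeness to Mdk, was. Slide position of the cell type and injury markers other than Lrp2 and Lcn2 was not checked. The blocks of Mdk, Igfbp4, Igf1r and Pdgfa held 7.84%, 3.43%, 11.2% and 12.2%. With 1 loess curve per print block the differences were 0.50, 0.45, 0.37 and -0.09 in the same order.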

How the data were processed

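Per the file headers, the scanner files hold a mean intensity for each of 31200 spots and a median intensity around it, in 2 channels and not normalized. The authors also deposited log2 ratios for the arrays, with column medians of -0.0548 to 0.0911; their normalization, the scanner software and the genome build were not given in the sources used here. Deposited columns matched other arrays than their names (Spearman 0.586 to 0.948, with 546 over 647, for 12 of 12). The members and gene lists were chosen with earlier results of these data known.

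Probe numbers were counted from the bottom row of the slide, which gave a brightness correlation of 0.333 over 1766 pairs of clones of 1 gene, against 0.0860 for the next order and 0.0339 in file order. Of the spots, 18382 had 1 gene symbol, 508 several and 12310 none; symbols were updated where the gene number was in the RefSeq gene table (18170 spots). With R 4.3.3 and limma 3.58.1, background was corrected by normexp (offset 50) and ratios were normalized by loess within arrays. The fit dropped 23 spot values that had no usable signal, averaged both spots of a clone, left out the dimmest 25% of clones (3900 of 15600) and kept the brightest clone per gene, leaving 5871 named genes and 4087 unnamed clones.

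The 12 ratios were fitted to 6 animal levels and a dye term, and levels were compared 3 against 3 with lmFit and eBayes, two-sided, Benjamini-Hochberg, threshold 0.05. Animals within a group were compared by moderated F tests on the arrays. The procedure was tested on simulated data. Named genes were the 4 members, the 4 largest differences of each list, fixed partner genes and the 3 most correlated genes per member. Alternatives were background, normalization, filter, dye term, clone choice, arrays and animals left out, the replicate block and the deposited ratios. Numbers were not treated as pairs, since animals with the same number share only that number. Correlations of same-numbered animals across the groups were -0.04, -0.37 and -0.17 (deviations from group means, across genes). Same-numbered animals of the groups never shared an array, unlike all other between-group pairs. Array error enters these correlations through that layout, so they cannot decide whether numbers are pairs.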

Additional observations from a re-analysis of the deposited data

How the results depend on the processing

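Over 35 alternatives each, the difference ran from -0.066 to 0.75 for Mdk, 0.06 to 0.82 for Igfbp4, -0.31 to 0.75 for Igf1r and -0.40 to 0.0046 for Pdgfa. Many of the 35 could not change these differences, so they are not all checks of the sign. Such were leaving out the dye term, the dim filter or within-group arrays, and averaging clones. Arrays as replicates, the replicate block and the permutation test also could not. Leaving out the array with the unmatched identifier was listed under separate names. Signs turned only where arrays were reassigned, an alternative chosen after seeing the data: scanner ratios in the order of the deposited columns gave -0.066 for Mdk and -0.12 for Igf1r, and deposited ratios at the arrays their columns are named for gave -0.31 for Igf1r and 0.0046 for Pdgfa; the cause was not tested. Without background correction the 4 differences were 0.19, 0.37, 0.21 and -0.02, and deposited ratios matched to the arrays they follow gave 0.75, 0.55, 0.60 and -0.40.

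With 1 animal left out, Mdk ran from 0.23 to 0.56, Igfbp4 from 0.36 to 0.82 (adjusted p 0.0376 without diabetic animal 2, and 0.0376 to 1.00 over its alternatives), Igf1r from 0.08 to 0.75 and Pdgfa from -0.21 to -0.03. With 1 array left out, Igfbp4 ran from 0.48 to 0.68. Genes called between the groups numbered 2 after scale normalization (1061 at an unadjusted p under 0.05), 0 to 46 with 1 animal left out and 0 with 1 array left out.

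Genes called among the diabetic animals, 144 as reported, numbered 42 without background correction, 272 with loess per print block, 334 with median centring, 68 with scale normalization, 46 without the dye term, 31 without the array titled diabetic 2 and diabetic 3, and 31 to 188 with each array left out. Print-block loess brought Mdk past the threshold there (adjusted p 0.0220), as leaving out the array of diabetic 3 over diabetic 1 did Igf1r (0.0261). Among the menopausal/diabetic animals 1 gene was called with print-block loess, and 0 to 1 with an array left out.

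List medians moved by more than their spread over animals as follows. Ranges with an animal left out are given whole, and not every value in them moved that far. Midkine and receptors had 0.0069 with all clones averaged, -0.031 and -0.025 under the reassignments, and 0.018 to 0.11 with an animal left out. The IGF list had 0.14 with matched deposited ratios. The PDGF family had 0.0046 and -0.0050 under the reassignments, and -0.0039 to 0.15 with an animal left out. Adaptors and PI3K had 0.10 with median centring, -0.043 and -0.0077 when reassigned, and 0.025 to 0.096 with an animal left out. RAS-MAPK had 0.017 without background correction, 0.041 with all clones averaged, -0.054 and -0.045 when reassigned, and -0.0077 to 0.089 with an animal left out. Other growth factors had -0.032 with median centring, -0.060 and -0.034 when reassigned, and -0.024 to 0.056 with an animal left out.

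Animals of 1 number share only that number. Each number occurs once in each group, so a block for the replicate number cannot change the differences of 0.44, 0.61, 0.49 and -0.13. With that block the adjusted p was 0.705, 0.716, 0.767 and 0.918, and 0 genes were called (limma). The scan date was not run as a batch, since the files used here hold none. Pdgfa, detected on 5 of 12 arrays, is limited by its signal over background.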
